A study of Mus musculus with 4 samples.

Results

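Trim28 and 9 further genes of silent chromatin were followed in mouse embryonic stem cells that carry a G784E change in 1 copy of Smarca4, the ATPase of the BAF chromatin remodelling complex. The 10 genes are Trim28, Setdb1, Atf7ip, Zfp57, Cbx1, Cbx3, Cbx5, Daxx, Suv39h1 and Suv39h2, listed by symbol and all found among the 24428 genes of the count tables. They were chosen from their place in the Trim28 and H3K9 methylation pathway with values of the G784E over WT comparison already known, among them the rise of Trim28. Their values in that comparison are therefore a description, and no p-value given for them is independent support.

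The data are 4 RNA-seq libraries of poly(dT)-captured RNA, 2 of G784E cells and 2 of WT cells. G784E cells express the mutant Smarca4 fused to the V5 tag and WT cells an unmutated Smarca4-V5; in both groups the other Smarca4 allele is wild-type and fused to GFP, so the mutation is heterozygous and the WT cells carry the same 2 tags. All cells were of strain 129SvEv, at passage 15 to 20, in DMEM with 15% serum and LIF, and received no treatment. Whether a genotype was 1 clone or several, and whether the libraries came from separate cultures, is not given in the sources used here, so the spread between libraries may be technical.

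Silencing by this pathway starts with KRAB zinc finger proteins, which bind DNA and recruit Trim28 (also called KAP1), a scaffold with no DNA-binding specificity of its own. Trim28 brings in the methyltransferase Setdb1, whose trimethylation of histone H3 at lysine 9 is bound by heterochromatin protein 1 (HP1). In embryonic stem cells the pathway is known for keeping endogenous retroviruses silent and for preserving DNA methylation at imprinted loci.

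The promoters of Trim28, the gene that rose, and of its partner Setdb1, which did not pass the test, are shown first, because they act at the same step and differed in the outcome of the test. Each window runs from 250 bases before to 50 bases after the annotated start, 5′ to 3′ on the gene's strand, with CpG dinucleotides in capitals, and is credited to RefSeq. The Trim28 window is chr7:13023902-13024201 on the plus strand and the Setdb1 window chr3:95357153-95357452 on the minus strand, both of build GRCm38.p6, which is not the mm9 build of the counts.
Trim28: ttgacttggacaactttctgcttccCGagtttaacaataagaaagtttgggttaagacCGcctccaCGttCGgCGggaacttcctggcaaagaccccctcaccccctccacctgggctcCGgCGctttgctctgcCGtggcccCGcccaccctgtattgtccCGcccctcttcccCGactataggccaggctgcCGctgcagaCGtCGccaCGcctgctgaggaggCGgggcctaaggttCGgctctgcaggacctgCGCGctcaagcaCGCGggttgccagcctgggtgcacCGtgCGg
Setdb1: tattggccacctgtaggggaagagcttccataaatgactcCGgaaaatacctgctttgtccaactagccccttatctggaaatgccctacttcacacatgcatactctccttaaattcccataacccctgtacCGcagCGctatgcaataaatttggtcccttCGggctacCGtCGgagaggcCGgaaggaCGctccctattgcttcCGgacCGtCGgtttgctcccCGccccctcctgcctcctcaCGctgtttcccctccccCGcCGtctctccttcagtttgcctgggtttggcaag
The Trim28 window holds 23 CpGs and the Setdb1 window 15, against a median of 7 over 32851 promoter windows of the same length. Such counts do not go with the outcome of the test. Among genes not called, a Suv39h1 window held 37 CpGs, the Atf7ip window 29 and a Zfp57 window 4. The GC box GGGCGG, searched on both strands, was found 2 times in the Trim28 window and 1 time in the Setdb1 window, and at least once in 35.7% of all windows. The ETS motif CCGGAAG was found 2 times in the Setdb1 window and in 8.86% of all windows, and was not in the Trim28 window. Neither match is particular to these genes: a Daxx window held 3 GC boxes and 2 ETS motifs. The deposited data hold no measurement on these windows, and the matches are a description of letters.

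Trim28, the co-repressor scaffold of the pathway, was 1.95 times as abundant in G784E cells as in WT cells. It had 11287 and 13411 counts in the G784E libraries, against 5639 and 10008 in the WT libraries. Scaled for library size (CPM, the count per common library total, with TMM scaling), this is 1847 and 1580 CPM in G784E and 745 and 1016 CPM in WT. Both G784E libraries lay above both WT libraries, with the lowest level in WT replicate 1. The means were 1713 ± 189 CPM in G784E and 880 ± 192 CPM in WT (SD, n = 2 each), a log2 fold change of 0.96 (SE 0.20) past the threshold of edgeR's quasi-likelihood test (Benjamini-Hochberg adjusted p = 0.00806 over all 15763 genes tested). Leaving out WT replicate 1 put Trim28 outside the threshold (0.75, edgeR, adjusted p = 0.133), as did testing with no filter on low counts (0.92, adjusted p = 0.0556). Between the libraries numbered 1 the log2 ratio was 1.31, and between those numbered 2 it was 0.64. Of the 106 genes that edgeR called higher in G784E, Trim28 had the highest mean CPM, and it ranked 34th by adjusted p. Its rank among all genes by CPM was 23 and 38 in the G784E libraries and 102 and 73 in the WT libraries.

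Trim28 was the 1 gene of the 10 called at an adjusted p under 0.05, and none was called lower; of the other 9 genes none had an unadjusted p under 0.05 in edgeR, and neither DESeq2 nor limma-voom called any. All 10 passed the filter on low counts. Over all genes tested the share called was 2.56% (0.672% higher and 1.89% lower), and since the 10 genes were chosen with this comparison known, nothing is read from their count. The median log2 fold change was 0.04 over the 10 genes and 0.00 over all genes tested; 5 of the 10 lay above 0 and 5 below. The libraries of the 2 groups did not overlap for 3 of the 10, Trim28, Setdb1 and Atf7ip, all higher in G784E. Among all genes tested this was the case for 38.8%, and for 19.4% with G784E higher.

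**Figure D1:**
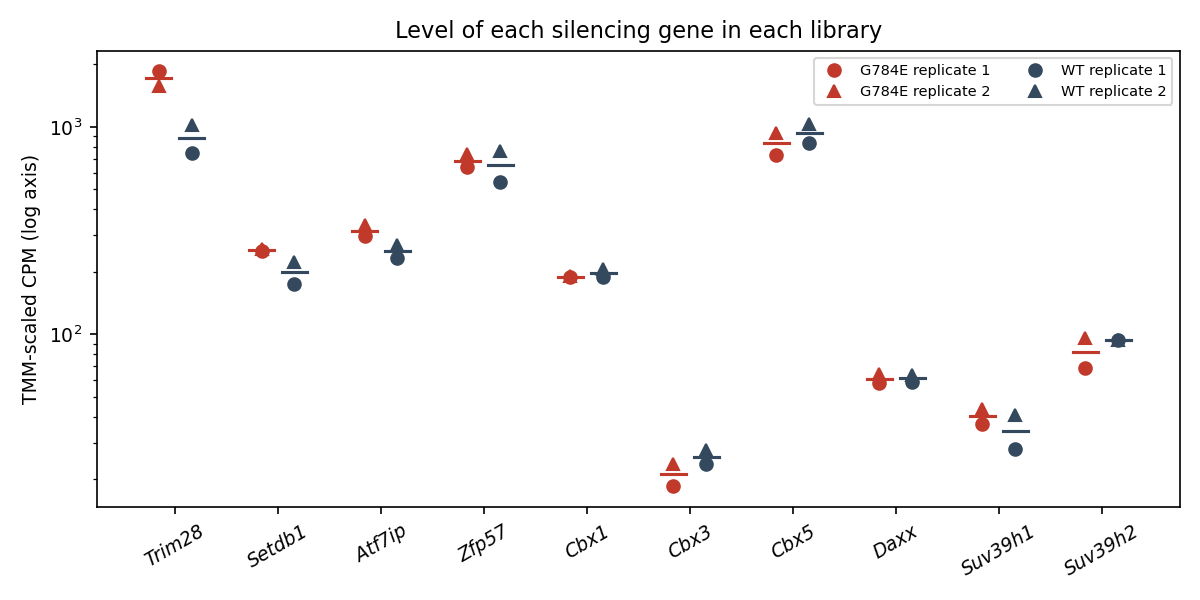
TMM-scaled CPM (log axis) of the 10 genes in each library, with G784E in red left of WT in dark blue, circles for replicate 1, triangles for replicate 2 and a bar at the mean of 2 libraries. The Trim28 points of G784E, 1847 and 1580 CPM, sit above those of WT, 745 and 1016 CPM, while most other pairs of groups overlap.

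The enzyme that Trim28 recruits and its cofactor lay higher in G784E by less than the test could separate. Setdb1, the H3K9 methyltransferase of the pathway, stood at 251 and 256 CPM in G784E and at 174 and 223 CPM in WT. The G784E libraries were close together and the WT libraries spread, with replicate 1 the lower. The log2 fold change was 0.35 (SE 0.20; 95% interval -0.07 to 0.77; edgeR, adjusted p = 0.566). Atf7ip, which binds Setdb1 and stabilises it, had 298 and 334 CPM in G784E and 233 and 269 CPM in WT. Its groups did not overlap either, with a log2 fold change of 0.33 (SE 0.20; interval -0.08 to 0.74; edgeR, adjusted p = 0.597). The ratio of Setdb1 to Atf7ip counts within a library, which needs no scaling, was 0.844 and 0.766 in G784E and 0.748 and 0.83 in WT, and the groups overlapped.

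Zfp57, a KRAB zinc finger protein that brings Trim28 to methylated imprinting control regions, was the second most abundant of the 10 per length of exon in both groups. It stood at 637 and 737 CPM in G784E and at 543 and 760 CPM in WT, where the 2 WT libraries enclosed those of G784E. The log2 fold change was 0.08 (SE 0.21; interval -0.35 to 0.50; edgeR, adjusted p = 0.996).

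The HP1 genes, whose products read methylated H3K9, did not pass the test in either direction. Cbx5 (HP1 alpha) stood at 731 and 934 CPM in G784E and at 839 and 1035 CPM in WT; the log2 difference was -0.17 (SE 0.20; edgeR, adjusted p = 0.914). Cbx1 (HP1 beta) stood at 189 and 190.5 CPM in G784E and at 189 and 206 CPM in WT; the log2 difference was -0.06 (SE 0.20; adjusted p = 0.998 in edgeR). Cbx3 (HP1 gamma) had the fewest counts of the 10, 113 and 202 in G784E and 180 and 272 in WT. At 18.5 and 23.8 CPM in G784E and 23.8 and 27.6 CPM in WT, its log2 fold change was -0.28 (SE 0.25; interval -0.80 to 0.24; edgeR, adjusted p = 0.829), the widest error of the set. In each group and for each of the 3 genes, replicate 2 was the higher library, and the groups overlapped, for Cbx3 by a margin at which 1 library of each group stood at 23.8 CPM.

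Per length of exon, Cbx5 made up 63.2% and 68.1% of the HP1 level in G784E and 65.9% and 68.5% in WT, Cbx1 34.4% and 29.3% in G784E and 31.3% and 28.7% in WT, and Cbx3 2.40% and 2.61% in G784E and 2.81% and 2.75% in WT. The split between the 3 genes moved by no more than the libraries of a group differed for Cbx5 and Cbx1, and the Cbx3 share was lower in both G784E libraries. The Cbx3 level is uncertain, because reads placed at more than 1 site (55.4% to 61.8% of each table) are not in the gene counts. In the GENCODE M21 annotation Cbx3 has 8 named pseudogenes, and 8.67% of the 50-base words of its transcripts also occur in transcripts of another gene. That share was 0 for Trim28, Zfp57, Cbx1 and Daxx, 0.0221% for Cbx5, 1.12% for Atf7ip and 4.89% for Suv39h2, 10.2% for Setdb1 and 12.2% for Suv39h1. The words were searched on both strands, so a gene on the opposite strand over the same exons counts as another gene. Such overlaps are annotated for Setdb1, Atf7ip, Suv39h1 and Suv39h2. Their shares are therefore not a measure of reads placed at more than 1 site and cannot be ranked against that of Cbx3. The effect of shared words on each count was not tested.

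Daxx, a chaperone that deposits the histone variant H3.3 together with Atrx, stood at 57.9 and 64.3 CPM in G784E and at 58.6 and 63.9 CPM in WT. The 2 ranges nearly coincide, and the log2 fold change was 0.00 (SE 0.21; interval -0.43 to 0.42; edgeR, adjusted p = 1).

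The SUV39H enzymes, which methylate H3K9 at pericentromeric repeats apart from Trim28, were among the lower levels. Suv39h1 stood at 37.0 and 43.6 CPM in G784E and at 27.9 and 40.7 CPM in WT; the log2 difference was 0.23 (SE 0.24; edgeR, adjusted p = 0.874). Suv39h2 stood at 68.6 and 95.5 CPM in G784E and at 93.8 and 94.2 CPM in WT; the log2 difference was -0.19 (SE 0.21; adjusted p = 0.893 in edgeR). Suv39h1 was lowest in WT replicate 1 and Suv39h2 in G784E replicate 1, and the groups overlapped for each gene. Counts of Suv39h2 per count of Suv39h1 were 1.85 and 2.19 in G784E and 3.36 and 2.31 in WT, with no overlap and WT replicate 1 far above the rest. Both values are uncertain where transcripts of the opposite strand lie over their exons, since the strand setting of the counting is not given in the sources used here: 14.6% of the exon bases of Suv39h1 overlap the antisense gene Gm14820 and 8.10% of those of Suv39h2 the gene Dclre1c.

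**Figure D2:**
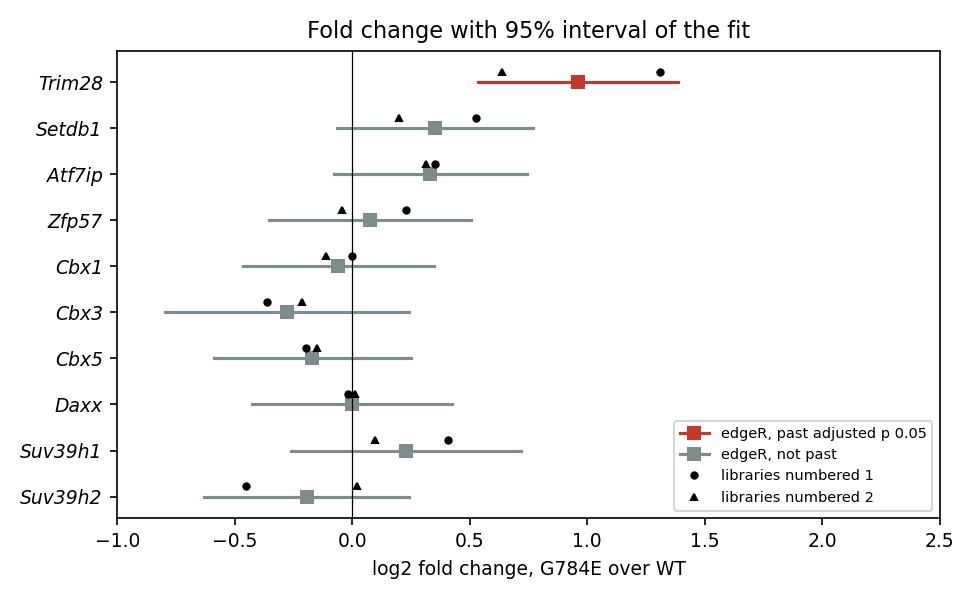
Log2 fold change of G784E over WT for the 10 genes, as squares with the 95% interval of the edgeR fit (red past an adjusted p of 0.05, grey not past), and the log2 ratio between the libraries numbered 1 (circles) and numbered 2 (triangles). The Trim28 interval, 0.54 to 1.38, lies above 0, and each of the other 9 intervals includes 0.

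Compared per kilobase of exon, Trim28 was the most abundant of the 10 in G784E, at 412 ± 45.4 CPM per kb (SD, n = 2), followed by Zfp57 (181 ± 18.8), Cbx5 (92.4 ± 15.9), Cbx1 (44.4 ± 0.300) and Setdb1 (37.0 ± 0.490). Daxx (19.4 ± 1.43), Suv39h2 (18.6 ± 4.32) and Atf7ip (15.2 ± 1.25) came next, and the libraries of Suv39h2 overlapped those of each of the other two. Suv39h1 (7.64 ± 0.886) and Cbx3 (3.53 ± 0.626) were last. In WT cells Trim28 (212 ± 46.2 CPM per kb) and Zfp57 (172 ± 40.4) overlapped, at 179 and 244 against 144 and 201 in the 2 libraries of each. Cbx5 (104 ± 15.4), Cbx1 (46.2 ± 2.78), Setdb1 (29.0 ± 5.04), Suv39h2 (21.3 ± 0.0742), Daxx (19.4 ± 1.17), Atf7ip (12.1 ± 1.23), Suv39h1 (6.51 ± 1.72) and Cbx3 (4.29 ± 0.454) followed in WT, with no overlap between neighbours in that order. The order was thus the same in both groups but for Suv39h2 and Daxx. Exon lengths came from build GRCm38, and Atf7ip, with 20726 annotated exon bases against 3151 to 9006 for the others, is the longest by annotation.

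Ratios of counts within a library are free of library scaling, and those with Trim28 on top were higher in G784E. They reuse the Trim28 counts given above, so they are a description and no separate support. There were 7.35 and 6.17 Trim28 counts per Setdb1 count in G784E, against 4.27 and 4.55 in WT. Per count of Zfp57 there were 2.90 and 2.14 in G784E and 1.37 and 1.34 in WT, and per count of Cbx5 2.53 and 1.69 in G784E and 0.887 and 0.982 in WT. In none of these did the groups overlap. As a share of the CPM of all 10 genes, Trim28 made up 44.7% and 37.1% in G784E and 25.4% and 27.2% in WT. The other 9 genes summed to 2287 and 2679 CPM in G784E and to 2183 and 2719 CPM in WT, where the WT libraries enclosed those of G784E.

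**Figure D3:**
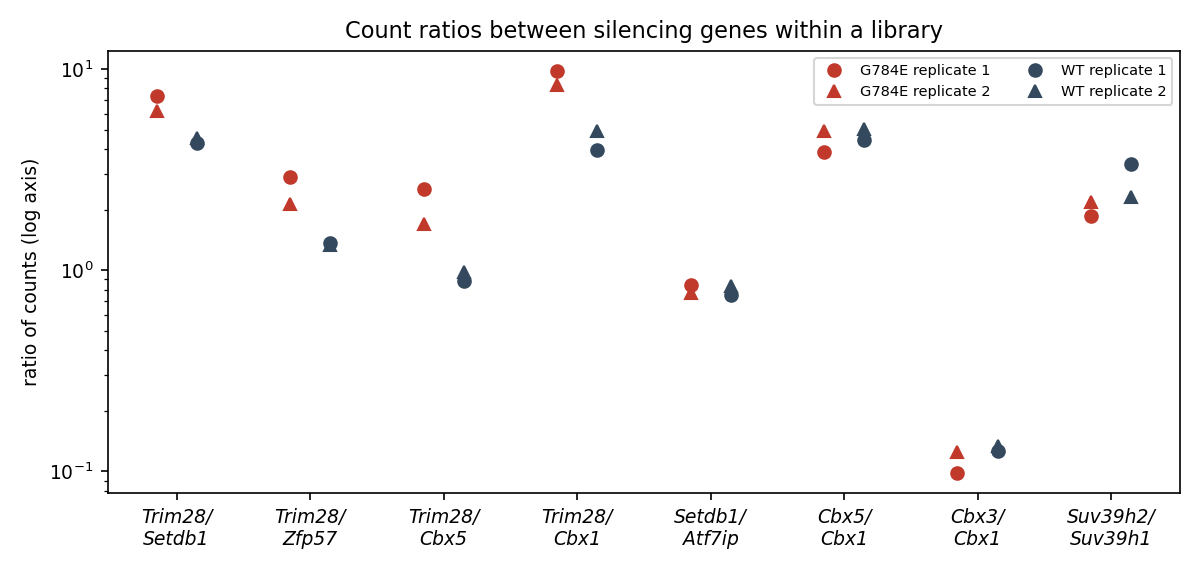
Ratios of raw counts between pairs of the genes within each library (log axis), with G784E in red left of WT in dark blue, circles for replicate 1 and triangles for replicate 2. The 4 ratios with Trim28 on top are higher in both G784E libraries, as for Setdb1 (7.35 and 6.17 in G784E, 4.27 and 4.55 in WT), while Setdb1 over Atf7ip and Cbx5 over Cbx1 overlap between the groups.

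Smarca4 itself, whose 2 alleles are not told apart in these counts, stood at 3868 and 3580 CPM in G784E and at 2423 and 2553 CPM in WT, with a log2 fold change of 0.58 (SE 0.19; edgeR, adjusted p = 0.119). The gene counts per library were 6226145 and 8895433 in G784E and 7027108 and 10083442 in WT, so that 3 counts, the least taken as detected, correspond to 0.353 to 0.491 CPM in G784E and 0.305 to 0.396 CPM in WT. Reads in 1125 olfactory receptor genes, a measure of reads that need not come from expressed genes, summed to 685 and 282 CPM in G784E and to 684 and 193 CPM in WT before scaling. The 8 pluripotency markers were all detected and summed to 3012 and 3042 CPM in G784E and to 2433 and 2779 CPM in WT, none of them called. Markers of primitive endoderm, a cell type that such cultures can hold, moved with the group: 12 of 12 fell, and they summed to 760 and 762 CPM in G784E and to 6154 and 6392 CPM in WT, with none at 0. Of 8 trophectoderm markers 3 fell, Krt8, Krt18 and Eomes, and 5 were not called. Of those 5, Tfap2c (log2 fold change 0.65, no overlap) and Cdx2 (0.13) lay above 0, and Elf5, Gata3 and Ascl2 below. The markers of this list thus did not move together. Of 7 tested feeder fibroblast markers none was called. Fewer cells of a type and less RNA per cell cannot be told apart in these bulk samples, and what part the endoderm markers' fall has in the Trim28 values was not tested.

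The genes whose pattern over the 4 libraries was most like that of Trim28 were Mrps7, Eras and Slc27a4. Likeness was the Euclidean distance between log2 CPM profiles centred on each gene's mean, over 9875 named genes that averaged 5 CPM or more, and the 3 distances were 0.06, 0.08 and 0.10 log2 units. Mrps7, a mitochondrial ribosomal protein gene, stood at 38.6 and 34.4 CPM in G784E and at 15.2 and 21.0 CPM in WT. Eras, a Ras family gene of embryonic stem cells, stood at 49.6 and 42.3 CPM in G784E and at 20.1 and 25.5 CPM in WT. Slc27a4, a fatty acid transport gene, stood at 16.7 and 15.1 CPM in G784E and at 6.87 and 8.83 CPM in WT. Each was high in G784E replicate 1 and lowest in WT replicate 1, as Trim28 was. Among the other 9 silencing genes, Setdb1 was nearest to Trim28, at a distance of 0.64 and place 920 of 9875, and Cbx3 farthest, at 1.33 and place 7182.

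None of the genes next to Trim28 on the chromosome passed the test. The 3 nearest genes of the tables on each side and 1 gene whose annotated span overlaps it, Zbtb45, were all tested, and none of the 7 was called by edgeR, DESeq2 or limma-voom or had an unadjusted edgeR p under 0.05, with a median log2 fold change of -0.05. Chmp2a, an ESCRT-III component and the nearest gene at higher coordinates, stood at 20.5 and 25.8 CPM in G784E and at 27.9 and 31.2 CPM in WT. Ube2m, a NEDD8-conjugating enzyme gene behind it, stood at 12.8 and 13.2 CPM in G784E and at 5.28 and 12.3 CPM in WT. No annotated exon of another gene lies over the exons of Trim28. Around all 10 genes, 1 of 52 neighbours tested was called, against 2.56% of all genes: Plbd1, beside Atf7ip, which fell to 2.78 and 2.71 CPM in G784E, against 10.04 and 9.44 CPM in WT (log2 fold change -1.82, SE 0.49; edgeR, adjusted p = 0.0419).

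Around the 10 genes, 10 lists of pathway partners and readouts were examined, with 111 tested genes of which 3 were called (2.7%, against 2.56% of all genes) and with a median log2 fold change of 0.14. The 3 called genes were all imprinted genes. A gene that did not pass is not shown to be unchanged. In the other 9 lists edgeR called none of 98 genes, while DESeq2 called 1 and limma-voom 3. Over all 15763 genes tested, DESeq2 called 359 and limma-voom 550. Of the 98 genes, 9 had an unadjusted edgeR p under 0.05. The share over all genes at that p is not given here, so nothing is read from the 9. Leaving out the 2-cell-stage genes, the log2 fold changes in these lists ran from -1.12 (Trim66) to 0.71 (Zfp445).

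**Figure D4:**
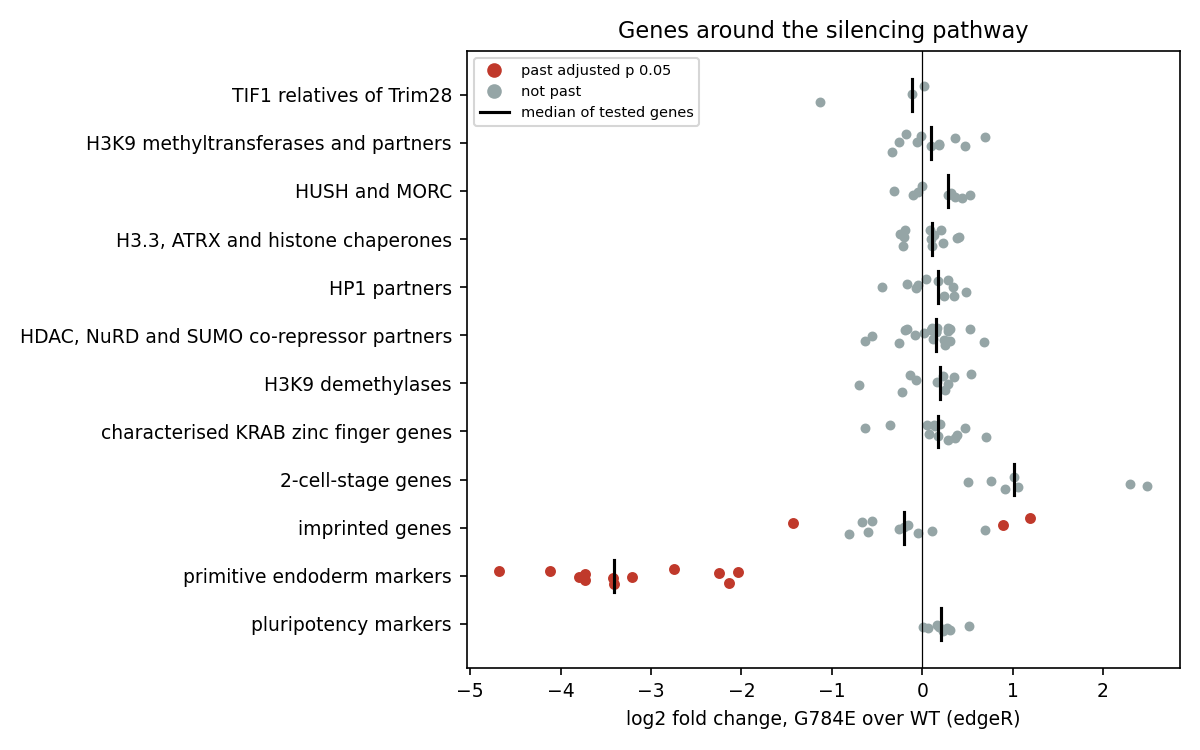
Log2 fold change of G784E over WT for each tested gene of the 10 pathway lists and of the primitive endoderm and pluripotency markers, 1 point a gene, red where the adjusted p was under 0.05 and grey where not, with a black bar at the median of the tested genes. The red points of the pathway lists are Igf2, Mest and Grb10. The 2-cell-stage row shows the 7 tested of 23 genes, of which Zscan4c and Tdpoz2 passed the filter only through G784E.

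Trim24 and Trim33, relatives of Trim28 in the TIF1 family, stood at 279 and 332 CPM (Trim24) and 363 and 422 CPM (Trim33) in G784E, against 302 and 359 CPM and 331 and 441 CPM in WT. Neither was called, nor was Trim66, and the log2 fold changes of Trim24 and Trim33 were -0.11 and 0.02.

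None of 11 tested H3K9 methyltransferases and partners outside the 10 genes was called, with a median of 0.10. The highest level was that of 2810474O19Rik, now named Resf1, a regulator of retrovirus silencing that works with Setdb1 in mouse embryonic stem cells. It stood at 641 and 718 CPM in G784E and at 365 and 474 CPM in WT, with no overlap. Its log2 fold change of 0.70 (SE 0.20) did not pass edgeR's test (adjusted p = 0.0757). Limma-voom (0.70, adjusted p = 0.00715) and DESeq2 (0.70, adjusted p = 0.0118) did call it. EdgeR called it after upper-quartile scaling (0.70, adjusted p = 0.00872), after a stricter filter (0.69, adjusted p = 0.0481) and without G784E replicate 1 (0.79, adjusted p = 0.0336). Over all alternatives its adjusted p reached 0.757, without WT replicate 1. Prdm2 stood at 391 and 424 CPM in G784E and at 333 and 385 CPM in WT (log2 fold change 0.18, SE 0.20).

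The HUSH complex, which silences retroelements and young insertions together with Setdb1, and the MORC ATPases had a median of 0.29 over 9 tested genes, none called. Mphosph8, the HUSH subunit that reads methylated H3K9, stood at 319 and 352 CPM in G784E and at 319 and 398 CPM in WT. Morc2a, an ATPase that works with HUSH, stood at 376 and 407 CPM in G784E and at 230 and 314 CPM in WT (log2 fold change 0.52, SE 0.21; edgeR, adjusted p = 0.258).

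Among 12 tested genes of H3.3, Atrx and histone chaperones (median 0.10, none called), Atrx, the partner of Daxx, stood at 1350 and 1620 CPM in G784E and at 1431 and 1959 CPM in WT, with a log2 fold change of -0.19 (SE 0.20). The chromatin protein gene Dek stood at 607 and 768 CPM in G784E and at 708 and 874 CPM in WT. For Atrx and for Dek the groups overlapped.

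Of 11 HP1 partners (median 0.18) none was called. Pogz, a zinc finger protein that binds HP1, stood at 434 and 490 CPM in G784E and at 338 and 386 CPM in WT, with no overlap and a log2 fold change of 0.35 (SE 0.20; edgeR, adjusted p = 0.543). Incenp, of the chromosomal passenger complex, stood at 228 and 222 CPM in G784E and at 179 and 202 CPM in WT.

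EdgeR called none of 22 genes of histone deacetylases, the NuRD complex and the SUMO pathway, co-repressor partners of Trim28, and the median was 0.15. Their log2 fold changes ran from -0.63 (Mta3, adjusted p = 0.121 in edgeR) to 0.69 (Chd3, adjusted p = 0.123 in edgeR). For Mta3 and for Chd3 the groups did not overlap. Upper-quartile scaling and limma-voom each called 1 of the 22. Chd4, the NuRD remodeller, stood at 1086 and 1145 CPM in G784E and at 806 and 991 CPM in WT (log2 fold change 0.31, SE 0.20; edgeR, adjusted p = 0.64). Gatad2a, another NuRD subunit, stood at 496 and 573 CPM in G784E and at 409 and 468 CPM in WT. Of 10 tested H3K9 demethylases, which remove the mark, none was called, and the median was 0.19. Jmjd1c stood at 1131 and 1305 CPM in G784E and at 884 and 1111 CPM in WT, and Kdm3b at 345 and 375 CPM in G784E and at 273 and 332 CPM in WT.

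The KRAB zinc finger genes other than Zfp57 that were examined, 13 of them and all tested, had a median of 0.18 and no calls. Zfp568, a repressor needed in the mouse embryo, stood at 410 and 512 CPM in G784E and at 354 and 480 CPM in WT. Zfp445, which acts beside Zfp57 in keeping imprints, stood at 141 and 162 CPM in G784E and at 62.7 and 123 CPM in WT. Its log2 fold change of 0.71 (SE 0.24) did not pass in edgeR (adjusted p = 0.167) and passed in limma-voom (0.78, adjusted p = 0.00591), without G784E replicate 1 (0.83, edgeR, adjusted p = 0.00785) and without WT replicate 2 (1.27, edgeR, adjusted p = 0.00318). It did not pass without G784E replicate 2 (0.62, edgeR, adjusted p = 0.0718), and without WT replicate 1 it was 0.31 (edgeR, adjusted p = 1). WT replicate 1 was the library in which Zfp445, like Trim28, was lowest.

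Readouts of the pathway were examined in the genes it is known to keep low. Genes of the 2-cell stage, which rise in mouse embryonic stem cells when silencing factors are lost, summed over 23 genes to 30.4 and 17.1 CPM in G784E and to 15.2 and 5.69 CPM in WT. Each G784E sum was above the WT sum of the same replicate number, G784E replicate 2 and WT replicate 1 were close, and the olfactory receptor sums given above ran in the same order of replicates, higher in replicate 1 of each group. Of the 23 genes 7 had no count in any library and 16 were not tested. None of the 7 tested was called. Their log2 fold changes ran from 0.51 to 2.49, with a median of 1.01 and SEs of 1.02 to 1.69. The 16 genes with too few counts are not in that median. Zscan4c, the highest at 2.49 (8 and 13 counts in G784E, 3 and 1 in WT), and Tdpoz2 passed the filter only through the G784E libraries. The range and median thus lean upward by the filter and are no support for a rise. Tdpoz2 stood at 3.44 and 3.65 CPM in G784E and at 0.264 and 1.12 CPM in WT (21 and 31 counts against 2 and 11; edgeR, adjusted p = 0.417), and Tdpoz1 at 2.78 and 3.06 CPM in G784E and at 2.51 and 0.609 CPM in WT. Several of these genes lie in near-identical copies, whose reads are lost to the gene counts, and the repeats and retroviruses themselves were not analysed here.

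Of 13 tested imprinted genes, a class that includes loci where Zfp57 and Trim28 keep methylation, 2 rose and 1 fell, with a median of -0.21. Grb10, a growth-restraining adaptor, rose to 766 and 943 CPM in G784E, against 332 and 418 CPM in WT (log2 fold change 1.19, SE 0.21; edgeR, adjusted p = 0.000969). Mest rose to 184 and 224 CPM in G784E, against 90.9 and 129 CPM in WT (0.89, SE 0.21; edgeR, adjusted p = 0.0212). Mest was not called when WT replicate 1 was left out (0.66, edgeR, adjusted p = 0.532). Igf2, a growth factor gene, fell to 76.9 and 67.4 CPM in G784E, against 191 and 198 CPM in WT (-1.43, SE 0.20; edgeR, adjusted p = 9.27e-05). Peg10 stood at 1629 and 1799 CPM in G784E and at 2415 and 3041 CPM in WT, with no overlap. Its log2 fold change of -0.67 (SE 0.19) did not pass in edgeR (adjusted p = 0.0729). H19 went the other way, at 27.3 and 16.6 CPM in G784E and 16.2 and 10.9 CPM in WT, with no overlap. Its log2 fold change of 0.69 (SE 0.30) did not pass either (edgeR, adjusted p = 0.335). Meg3 (-0.81) and Inpp5f (-0.60) were lower and not called. With upper-quartile scaling, the stricter filter, DESeq2 or limma-voom, and without Rn45s, 4 genes of this list were called. The primitive endoderm markers fell in the same comparison, and their part in the Igf2 and Peg10 values was not tested. Allele of origin cannot be read from these counts.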

How the data were processed

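RNA-seq counts of 4 mouse embryonic stem cell libraries (2 G784E, 2 WT) were used, grouped by the labels. The authors deposited raw counts per gene symbol, 1 table a library. The build was mm9 and the tools Bowtie2 2.1.0, CASAVA 1.8.2, DESeq2 and HTSeq, per the submitters' processing notes. Their order, strand setting, counting mode and annotation: not given in the sources used here. Summary rows (83.3% to 88.7% of each table) were left out.

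From these counts, edgeR 4.0.16 (R 4.3.3) was run with TMM scaling, filterByExpr (minimum count 10, total 15; 15763 genes kept), a group-only model (2 residual degrees of freedom), and quasi-likelihood tests, adjusted over all genes by Benjamini-Hochberg at 0.05. SEs are the log2 fold change over the root of F. Also run were upper-quartile and RLE scaling, no filter, a stricter filter (1 CPM in 2 libraries, 50 counts in all), DESeq2 1.42.0, limma-voom (limma 3.58.1), a replicate block, a robust prior, leaving out each library in turn, and leaving out Rn45s. The procedure was tested on simulated data.

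The 10 genes and all lists were chosen with earlier results of these data known. Named list genes were those called, or else the 2 of highest mean CPM. Chd3, Mta3, Peg10, H19, Meg3, Inpp5f, Zscan4c and the trophectoderm markers not called were named beside that rule, with their values known. The chromosomal neighbours were added after the members' values were seen. A search for KRAB genes by protein sequence was planned and not run. Exon lengths, overlaps and shared 50-base words came from GENCODE M21 (GRCm38), and promoters from RefSeq (GRCm38.p6), which held all 10 genes. The counts give 0.102 to 0.164 CPM per count, and PCR copies are not independent molecules.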

Additional observations from a re-analysis of the deposited data

How the results depend on the processing

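The log2 fold change of Trim28 lay between 0.75 and 1.20 in all 13 alternatives and passed in 11, with adjusted p from 2.15e-07 (replicate block) to 0.133 (without WT replicate 1). Of the 10 genes, 1 was called, except 0 with no filter, and 0 to 1 with a library left out (0 without WT replicate 1). None of the other 9 genes passed in any of these alternatives. The median log2 fold change over the 10, 0.04, ran from -0.091 (without WT replicate 1) to 0.20 (without WT replicate 2) with a library left out. Over all genes 404 were called, 1204 with the replicate block and 185 (without WT replicate 1) to 839 (without G784E replicate 2) with a library left out, and 256 without WT replicate 2. Of the pathway genes 3 were called, 5 with the stricter filter and in DESeq2, 6 with upper-quartile scaling, 7 in limma-voom, 15 with the replicate block, and 3 to 6 with a library left out. Over all 15763 genes tested, DESeq2 called 359, limma-voom 550 and edgeR with upper-quartile scaling 440. With the stricter filter 405 of 14205 genes were called. Libraries of equal number deviated together (correlation 0.49 over genes). Summary rows made up 88.3% (G784E) and 88.7% (WT) of the tables numbered 1, and 83.7% and 83.3% of those numbered 2. With 2 pairs and no shared batch or culture in the labels, the numbers do not establish a pairing, so the block is given here only. Genes that also passed in edgeR with the block included Resf1 (0.70, adjusted p = 1.74e-05), Zfp445 (0.77, adjusted p = 0.000827), Morc2a (0.54, adjusted p = 0.00175), Pogz (0.35, adjusted p = 0.033), Chd4 (0.32, adjusted p = 0.0377) and Slc27a4 (1.01, adjusted p = 0.0485). Further genes of the pathway lists passed with it and are not listed here. In DESeq2 Mrps7 missed the threshold (1.01, adjusted p = 0.0626), and neither Mrps7 (0.79, adjusted p = 0.582) nor Eras (0.85, adjusted p = 0.396) passed in edgeR without WT replicate 1. Smarca4 passed in DESeq2, limma-voom, upper-quartile scaling and the block. The cause of these moves was not tested. Where 1 library is left out, the fit takes the spread of the group with 2 libraries for the single one. The planned KRAB list by protein sequence was not run.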
